A study of Homo sapiens with 12 samples.

Results

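The question asked of these arrays was how the response of U2OS-ERα cells to estradiol differed once SRC-1 had been depleted by siRNA: which hormone effects became smaller, which became larger and which stayed within a stated bound. U2OS-ERα cells are human osteosarcoma (bone tumour) cells that carry estrogen receptor α. The comparison used 12 of the 12 arrays of the study, in 4 groups of 3 labelled biological replicates. The control groups had received a non-targeting siRNA pool and then ethanol vehicle or estradiol. The other groups had received a pool against SRC-1, the protein encoded by NCOA1, and then the same vehicle or estradiol. Each pool was used at 50 nM, the medium held charcoal-stripped serum, and treatment lasted 3 h in every group. Whether the line is 1 clone, and which promoter drives the receptor, is not given in the sources used here, and whether replicates were separate cultures is stated only by the word biological in the labels, so p-values measure the spread among these arrays.

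SRC-1 is a p160 coactivator. Estrogen receptor α with bound hormone recruits p160 proteins through short leucine-rich motifs, and these bring in histone acetyltransferases such as p300 and CBP, which favours transcription of nearby genes. The family has other members, NCOA2 and NCOA3, that bind the same receptor surface. The receptor acts both at its own DNA element and through other factors bound to DNA, such as AP-1, and it represses genes as well as activating them.

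The labels and the cells were checked first. NCOA1 (probe set 8040552) read 8.81, 8.72 and 8.83 log2 in the vehicle arrays and 9.15, 9.06 and 9.02 in the estradiol arrays with non-targeting siRNA, and 6.18, 5.62 and 5.78 and then 6.79, 6.88 and 6.92 with SRC-1 siRNA. Every array with SRC-1 siRNA was below every array without it. The estimated depletion was 7.60-fold with vehicle and 4.64-fold with estradiol, so the 2 SRC-1 siRNA groups differed in remaining NCOA1 mRNA. This holds for every difference of estradiol effects below. The receptor gene ESR1 has a bright probe set (8122843), which lay between 12.01 and 12.19 log2 on the 12 arrays with a difference of estradiol effects of -0.07 (95% interval -0.19 to 0.05), and a dim one (8122840) between 5.31 and 5.71. Of the bone-lineage markers, SPARC (12.5 log2), COL1A1 (9.12) and RUNX2 (7.21) were above the array medians of 6.858 to 6.901, whereas IBSP (4.93) lay under the lower quartile of 5.154. The leukocyte marker PTPRC (4.19) and the endothelial marker PECAM1 (5.10) also lay under it, whereas 3 of 14 leukocyte, 4 of 11 epithelial and 3 of 10 endothelial markers were above the array medians, among them CD68 (10.6), KRT18 (11.9) and ERG (8.22). In RNA from a whole culture, fewer cells of a type and less RNA per cell cannot be told apart. In all, 2 of 14 leukocyte and 2 of 10 endothelial markers did, and 0, 0 and 2 of the leukocyte, epithelial and endothelial markers responded to estradiol. Precision is limited by having 3 arrays per group, and a 95% interval of the difference reached a median of 0.221 log2 to either side.

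Across the genome, most estradiol responses could not be placed on either side. The difference of estradiol effects is the log2 effect with SRC-1 siRNA minus that with non-targeting siRNA. A probe set was called where its unadjusted p was below 0.01 and its p adjusted by Benjamini-Hochberg below 0.05. By this rule limma called 0 of 29094 (0%), and the smallest adjusted p was 0.392. At an unadjusted p under 0.05 there were 2102 (7.22%), of which 1129 (3.88%) were above 0 and 973 (3.34%) below. A trended and robust variance gave 2 calls, FST and LOX. The single effects behind the difference were called in 793 probe sets for estradiol with non-targeting siRNA (2.73%) and in 2001 with SRC-1 siRNA (6.88%). Single SRC-1 siRNA arrays moved the second count both ways. It was 2956 without vehicle replicate 1, and 1042 or 1242 without vehicle replicate 2 or 3. Without estradiol replicate 1 or 3 it was 1205 or 1289. Because the difference itself was called for no gene, all statements below on smaller or larger responses describe intervals that are not adjusted for the number of genes.

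Responsive genes were taken from the estradiol effect averaged over both siRNAs, which is uncorrelated by design with the difference. It was called in 2898 probe sets (9.96%), of which 2067 carry 1 gene symbol, 1232 raised and 835 lowered by estradiol. A response was termed smaller or larger where the 95% interval of the difference lay wholly on the side toward or away from 0. It was termed held where the interval covered 0 and stayed within 0.5 times the averaged effect on either side. By this rule 75 responses (3.63%) were smaller with SRC-1 siRNA, 200 (9.68%) were larger, 132 (6.39%) were held and 1660 were undetermined. The interval excluded 0 for 13.3% of the responsive probe sets, beside 7.22% of all those tested. These shares do not rest on equal precision, as both effects share 1 variance per probe set. The median standard error of the difference was 0.0847 log2 in the responsive set and 0.101 over all probe sets tested.

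**Figure D1:**
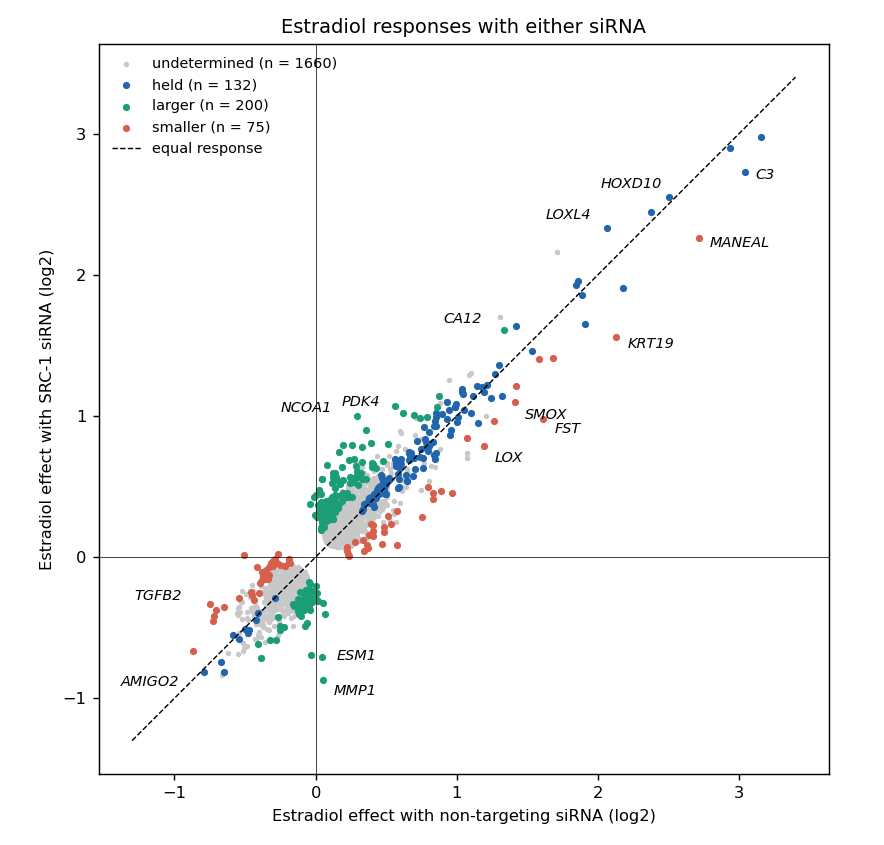
Estradiol effect (log2) with the control siRNA on the x axis against that with SRC-1 siRNA on the y axis, 1 point per responsive probe set, coloured by class, with a dashed line where both are equal. The 132 held responses follow the line up to the largest effects, such as C3 and HOXD10, while the 75 smaller responses lie nearer to 0 on the y axis and the 200 larger ones farther from it.

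Which class a response fell in went with its size. Of the 50 genes that estradiol raised by an average of at least 1 log2, 33 (66%) were held, 8 were smaller, 2 were larger and 7 were undetermined. Of the 161 with an averaged effect of 0.5 to 1 log2, 71 (44.1%) were held, 14 were smaller and 20 larger. Of the 1856 below 0.5 log2, 28 were held, 53 were smaller, 178 were larger and 1597 were undetermined. The bound for a held response grows with the effect, so a weak response can hardly meet it, and a strong one may change by more and still meet it. The interval excluded 0 for 20% of the responses of at least 1 log2, 21.1% of those of 0.5 to 1 log2 and 12.4% of those below 0.5 log2. No lowered gene reached 1 log2. The 37 smaller raised responses went from a median of 0.537 log2 with non-targeting siRNA to 0.237 with SRC-1 siRNA, and the 38 smaller lowered ones from -0.355 to -0.0979. The 132 larger raised responses went from 0.122 to 0.409 and the 68 larger lowered ones from -0.0763 to -0.33. The class rule itself favours a stronger effect in control cells for smaller responses and a weaker one for larger responses. These medians, and the counts that follow, therefore describe the choice of genes. Of the 132, limma called 21 in control cells and 132 after SRC-1 siRNA. Some genes count more than once, as the held class has 9 probe sets of the repeat gene DUX4 and the larger class 5 of CSPG4P5 and 3 of PARGP1, whose copies may not be told apart by hybridization.

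The balance of directions depended on scaling. The share of responsive probe sets that were raised was 59.6% as deposited, 69.4% after median centring (1335 raised, 590 lowered) and 43.4% after a renewed quantile normalization (1050 and 1371). For the larger class it was 66%, 73.9% and 42.7%, and for differences above 0 at an unadjusted p under 0.05 it was 53.7%, 61.1% and 40.9%. The smaller class moved less, at 49.3%, 55.8% and 53.3%, and the held class was mostly raised under each, at 91.7%, 91.3% and 88.8%. The 4203 control probe sets also differed between the groups, and their part in the classes was not tested beyond the fit with their mean as a covariate. Their mean deviation was -0.0762 ± 0.0425 and 0.0323 ± 0.0356 log2 (SD, n = 3) in vehicle and estradiol arrays with non-targeting siRNA, and -0.0909 ± 0.0672 and 0.135 ± 0.0419 with SRC-1 siRNA, a difference of 0.117, with the interval above 0 for 285 of them and below 0 for 76. In that fit, whose covariate itself separates the treatments, 169 of the 2067 stayed responsive, and 10 of the 75, 10 of the 200 and 78 of the 132 kept their class. The larger count also turned on single vehicle arrays: leaving out the first SRC-1 siRNA vehicle replicate gave 529, and leaving out replicate 2 gave 110.

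FST (probe set 8105302) and LOX (probe set 8113709) had the smallest unadjusted p among the smaller inductions. FST encodes follistatin, a secreted protein that binds and neutralizes activins, and LOX encodes lysyl oxidase, which crosslinks collagen and elastin. FST read 8.91, 8.72 and 8.72 log2 with vehicle and 10.46, 10.40 and 10.33 with estradiol after non-targeting siRNA, and 9.41, 9.28 and 9.44 and then 10.35, 10.39 and 10.35 after SRC-1 siRNA. The vehicle arrays of both siRNAs did not overlap, those with SRC-1 siRNA being higher, while the estradiol arrays reached the same height. LOX read 9.39, 9.41 and 9.27 with vehicle and 10.55, 10.55 and 10.54 with estradiol after non-targeting siRNA, and 9.89, 9.79 and 9.80 and then 10.63, 10.62 and 10.59 after SRC-1 siRNA. Again the vehicle level stood higher with SRC-1 siRNA in every array, and the estradiol arrays also stood higher without overlap, by a smaller margin. Estradiol raised FST 3.06-fold in control cells and 1.97-fold after SRC-1 siRNA, and LOX 2.28-fold and 1.73-fold. The differences were -0.64 (95% interval -0.83 to -0.44) and -0.40 (-0.55 to -0.26). Both had a limma adjusted p of 0.392, and 0.0106 and 0.0379 with a trended and robust variance. In vehicle cells SRC-1 siRNA raised FST by 0.60 and LOX by 0.47 log2 (limma adjusted p = 0.00103 and 0.000732), whereas in estradiol cells the values were -0.04 and 0.07 (0.807 and 0.528). For both genes a gap between the siRNAs was called in the vehicle arrays and in neither case in the estradiol arrays. Their promoters are shown since these 2 genes are the ones called for the difference with the trended and robust variance. The 250 bases before the start that RefSeq annotates (GRCh38.p14) lie at chr5:53480379-53480628 on the plus strand for FST and at chr5:122078260-122078509 on the minus strand for LOX. Capitals mark matches to TGACC, the single arm of the estrogen response element, or to the AP-1 site TGANTCA, on either strand.
FST: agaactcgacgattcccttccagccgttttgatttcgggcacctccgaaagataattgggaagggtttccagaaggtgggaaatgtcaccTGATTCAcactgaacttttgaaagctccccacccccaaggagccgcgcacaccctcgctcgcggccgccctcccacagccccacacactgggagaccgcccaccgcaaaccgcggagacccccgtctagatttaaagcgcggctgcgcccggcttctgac
LOX: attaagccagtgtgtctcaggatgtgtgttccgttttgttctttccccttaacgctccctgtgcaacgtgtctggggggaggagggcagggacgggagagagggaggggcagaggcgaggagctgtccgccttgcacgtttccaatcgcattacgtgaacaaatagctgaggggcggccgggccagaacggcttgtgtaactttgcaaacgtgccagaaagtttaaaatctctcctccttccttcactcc
Positions count back from -1, the base before the start. FST held 1 AP-1 match, at -160, and 2 GC boxes (GGGCGG on either strand), at -96 and -65. LOX had no match to TGACC or the AP-1 site in this window and 1 GC box at -79.

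**Figure D2:**
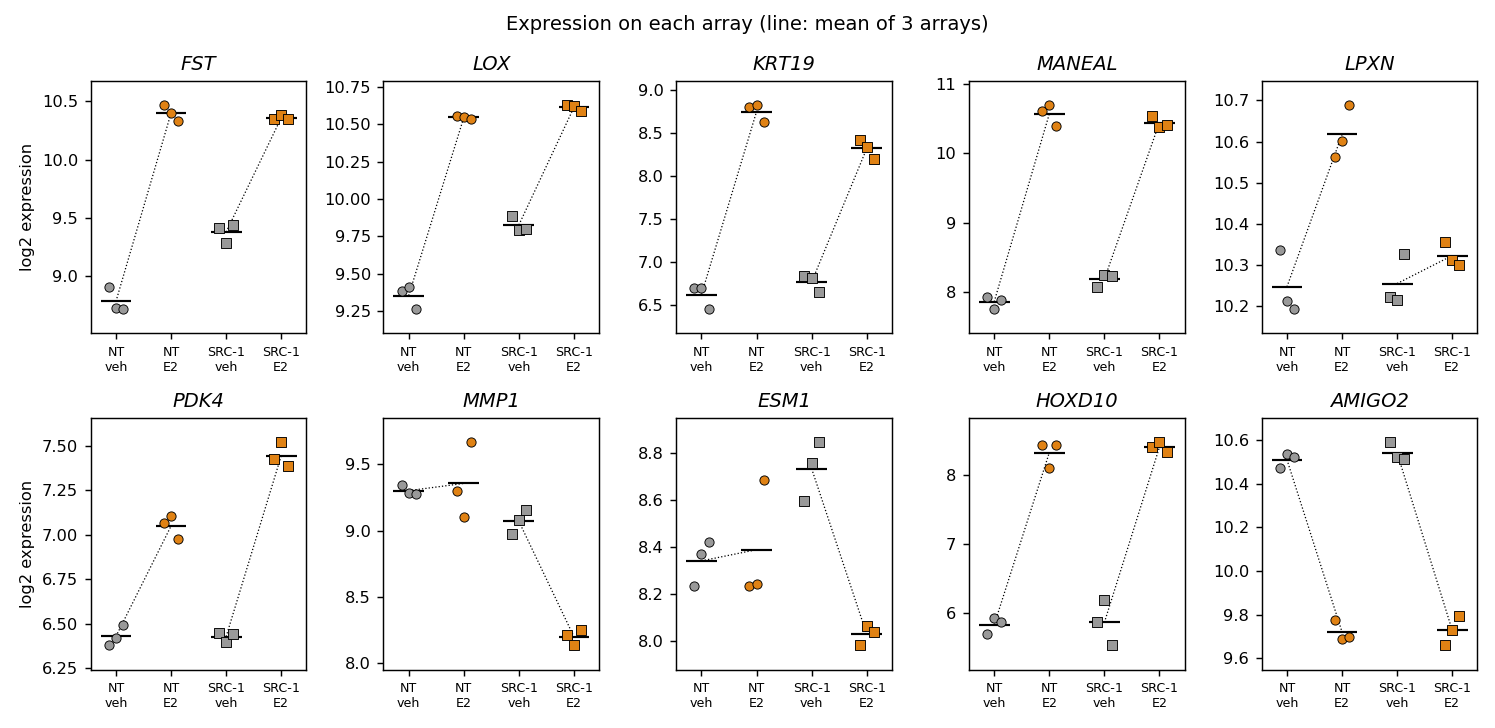
log2 expression of 10 genes on each of the 12 arrays (points; circles non-targeting, squares SRC-1 siRNA; grey vehicle, orange estradiol; bars are means of 3 arrays, each panel with its own y axis). The higher vehicle level of FST and LOX with SRC-1 siRNA, the lower estradiol level of KRT19 and LPXN, the higher one of PDK4, the drop of MMP1 and ESM1 seen with SRC-1 siRNA, and the like responses of HOXD10 and AMIGO2 are visible array by array.

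In other smaller inductions the siRNAs parted in the estradiol arrays. KRT19 (probe set 8015349), a keratin of simple epithelia and a known estrogen target in breast cancer cells, read 6.70, 6.70 and 6.45 log2 with vehicle and 8.80, 8.82 and 8.62 with estradiol after non-targeting siRNA, and 6.83, 6.81 and 6.65 and then 8.42, 8.34 and 8.20 after SRC-1 siRNA. The estradiol arrays of the siRNAs did not overlap, and SRC-1 siRNA lowered KRT19 there by 0.43 log2 (limma adjusted p = 0.0332), while the vehicle arrays did overlap. PLPP3, a lipid phosphate phosphatase of the plasma membrane, read 9.40, 9.40 and 9.49 with vehicle and 10.49, 10.54 and 10.47 with estradiol after non-targeting siRNA, and 9.33, 9.33 and 9.37 and then 10.19, 10.21 and 10.16 after SRC-1 siRNA. Its arrays were lower with SRC-1 siRNA without overlap under both treatments, a gap that was called with estradiol (-0.31 log2, limma adjusted p = 0.00386) and not with vehicle (-0.08, 0.452), and its response differed by -0.23 (-0.36 to -0.10). ISG20, an interferon-induced exonuclease, had a larger gap: 8.19, 8.41 and 8.61 with estradiol after non-targeting and 7.73, 7.95 and 7.77 after SRC-1 siRNA, from vehicle values of 7.36 to 7.52 and 7.29 to 7.43. Its difference was -0.51 (-0.81 to -0.20), and SRC-1 siRNA lowered it in estradiol cells (-0.59 log2, limma adjusted p = 0.0118).

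LPXN (probe set 7948332) was a response that was called with one siRNA only. LPXN encodes leupaxin, a focal adhesion adaptor of the paxillin family. It read 10.34, 10.21 and 10.19 log2 with vehicle and 10.56, 10.60 and 10.69 with estradiol after non-targeting siRNA, and 10.22, 10.21 and 10.33 and then 10.36, 10.31 and 10.30 after SRC-1 siRNA. Estradiol and vehicle arrays were apart with non-targeting siRNA and overlapped with SRC-1 siRNA. The fold was 1.29 (limma adjusted p = 0.00256) against 1.05 (0.491), a difference of -0.30 (-0.47 to -0.13), and SRC-1 siRNA lowered LPXN in estradiol cells (limma adjusted p = 0.0203). SDE2, a nuclear protein that acts in splicing and replication, had a difference of -0.31 (-0.49 to -0.14), with estradiol effects of 0.49 and 0.17 log2, the second not called (limma adjusted p = 0.0925).

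Some reductions were split between both sides. MANEAL (probe set 7900183), an endomannosidase-like gene, read 7.93, 7.76 and 7.89 log2 with vehicle and 10.61, 10.69 and 10.40 with estradiol after non-targeting siRNA, and 8.08, 8.24 and 8.23 and then 10.54, 10.39 and 10.41 after SRC-1 siRNA. Neither the vehicle gap of 0.33 (limma adjusted p = 0.0961) nor the estradiol gap of -0.12 (0.506) was called. SMOX, spermine oxidase, rose 2.66-fold in control cells and 2.14-fold after SRC-1 siRNA, from vehicle values of 7.90 to 7.94 and 7.97 to 8.05 to estradiol values of 9.27 to 9.43 and 9.03 to 9.20, a difference of -0.31 (-0.49 to -0.13). NR1D1, the heme-binding clock repressor REV-ERBα, went from 8.38 to 8.49 up to 9.18 to 9.29 with non-targeting siRNA and from 8.52 to 8.64 up to 9.01 to 9.13 with SRC-1 siRNA, a difference of -0.30 (-0.47 to -0.14). For SMOX and NR1D1 the vehicle arrays lay higher and the estradiol arrays lower with SRC-1 siRNA, without overlap, yet no single gap was called by limma. LYZ, lysozyme, also had a smaller response (-0.42, -0.59 to -0.25), but its siRNAs parted in the estradiol arrays alone. That gap was called (-0.35 log2, limma adjusted p = 0.00952), while the vehicle arrays overlapped (0.07, 0.638). At 3.98 to 5.00 log2 LYZ lay under the lower quartile, where its signal is not shown to exceed background.

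Signalling genes were among the smaller repressions. JAG1 (probe set 8064978), a Notch ligand, read 8.43, 8.39 and 8.39 log2 with vehicle and 7.84, 7.86 and 7.88 with estradiol after non-targeting siRNA, and 8.16, 8.06 and 8.15 and then 7.85, 7.92 and 7.72 after SRC-1 siRNA. Its vehicle level was lower with SRC-1 siRNA in every array (-0.28, limma adjusted p = 0.0233), while the estradiol arrays overlapped, and the response differed by 0.25 (0.09 to 0.41). TGFB2 (probe set 7909789), a TGF-β ligand, showed the other form: 9.68, 9.89 and 9.70 with vehicle and 9.16, 9.03 and 8.86 with estradiol after non-targeting siRNA, and 9.99, 9.83 and 9.73 and then 9.55, 9.58 and 9.43 after SRC-1 siRNA. Its vehicle arrays overlapped and its estradiol arrays were higher with SRC-1 siRNA (0.51 log2, limma adjusted p = 0.0183), where repression was no longer called (-0.33 log2, adjusted p = 0.0536). DUSP1 and DUSP10, phosphatases that switch off MAP kinases, had differences of 0.21 (0.07 to 0.35) and 0.27 (0.07 to 0.47). DUSP1 read 11.35 to 11.46 with vehicle and 10.99 to 11.05 with estradiol after non-targeting siRNA, against 11.26 to 11.33 and 11.06 to 11.15 after SRC-1 siRNA, and it was called lowered in both. IL6, an inflammatory cytokine, lay lower in the vehicle arrays with SRC-1 siRNA (-0.40, limma adjusted p = 0.0419) and then at 6.22 to 6.43 with estradiol, beside 6.36 to 6.46 with non-targeting siRNA, so its estradiol arrays overlapped.

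In a further group of lowered genes the effect was called with non-targeting siRNA and near 0 with SRC-1 siRNA. The zinc finger gene ZNF404 read 7.05, 6.95 and 7.06 log2 with vehicle and 6.58, 6.44 and 6.52 with estradiol after non-targeting siRNA, and 7.13, 6.83 and 6.72 and then 6.91, 6.86 and 6.94 after SRC-1 siRNA. Its arrays were apart in the first pair and overlapped in the second, a difference of 0.52 (0.24 to 0.79). ZNF566 (0.29), KRTAP4-1 (0.28), FAXC (0.27) and ARMH4 (0.27) were likewise called with non-targeting siRNA alone, with effects of -0.26 to -0.38 log2 against -0.11 to 0.03, though the FAXC arrays did not overlap with either siRNA. In the estradiol arrays SRC-1 siRNA raised ZNF566 by 0.31 (limma adjusted p = 0.00731) and ARMH4 by 0.33 (0.0079), while KRTAP4-1 was lower in the vehicle arrays (-0.30, 0.0148).

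The side on which the siRNAs parted was counted over each class. Of the 37 smaller raised responses, the estradiol gap was the larger in 25 and the vehicle gap in 12, with called siRNA effects in 10 and 3. For the 38 smaller lowered ones the counts were 22 and 16, with 11 and 8 called. For the 132 larger raised responses they were 77 and 55, with 21 and 9 called, and for the 68 larger lowered ones 48 and 20, with 19 and 9 called. Among the 121 held raised responses they were 62 and 59, with 6 and 6 called. Over all probe sets limma called an SRC-1 siRNA effect in 352 with vehicle (1.21%) and 524 with estradiol (1.80%). Single arrays moved these counts. The first was 169 to 230 without non-targeting vehicle replicate 1, 2 or 3 or SRC-1 siRNA vehicle replicate 2 or 3, and the second 216 to 290 without non-targeting estradiol replicate 1, 2 or 3 or SRC-1 siRNA estradiol replicate 1 or 3. Choosing genes by the difference favours siRNA effects on either side, so the shares within the smaller and larger classes are a description.

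**Figure D3:**
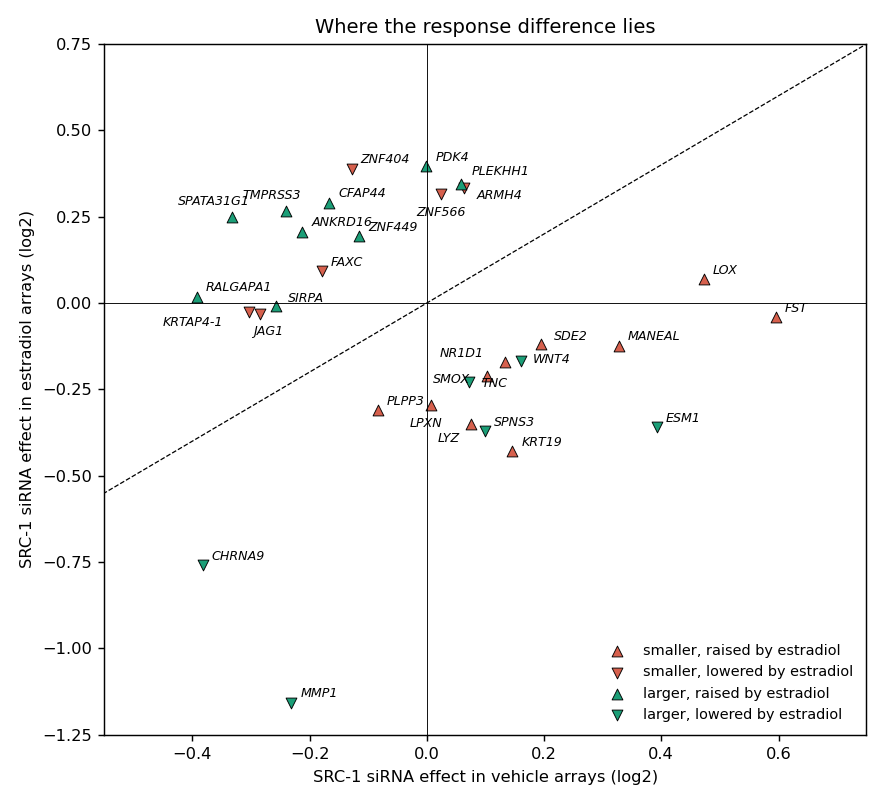
SRC-1 siRNA effect (log2) in vehicle arrays on the x axis and in estradiol arrays on the y axis for the named smaller (red) and larger (green) responses, pointing up for genes raised and down for genes lowered by estradiol; NCOA1, the siRNA target, is left off. The vertical distance from the dashed line is the difference of estradiol effects: FST and LOX sit to the right at a y value near 0, whereas PDK4, LPXN, PLPP3 and MMP1 are displaced mainly along the y axis.

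Among inductions that were larger with SRC-1 siRNA, PDK4 (probe set 8141094) had the smallest unadjusted p of the difference. It encodes a kinase that shuts down pyruvate dehydrogenase and so spares glucose. It read 6.38, 6.42 and 6.49 log2 with vehicle and 7.07, 7.10 and 6.98 with estradiol after non-targeting siRNA, and 6.44, 6.40 and 6.44 and then 7.43, 7.52 and 7.39 after SRC-1 siRNA. The vehicle arrays overlapped and the estradiol arrays did not, those with SRC-1 siRNA being higher by 0.40 log2 (limma adjusted p = 0.00343). The fold went from 1.54 to 2.03, a difference of 0.40 (0.24 to 0.56) with a limma adjusted p of 0.392. Its promoter, chr7:95596517-95596766 on the minus strand (RefSeq, GRCh38.p14), is shown as the contrast to FST and LOX, with capitals as above.
PDK4: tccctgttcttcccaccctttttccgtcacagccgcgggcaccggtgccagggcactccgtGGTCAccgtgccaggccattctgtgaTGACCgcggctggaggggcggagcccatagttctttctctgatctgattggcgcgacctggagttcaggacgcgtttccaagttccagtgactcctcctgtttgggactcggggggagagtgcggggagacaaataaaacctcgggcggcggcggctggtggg
It held TGACC at 2 places, -189 and -163, 2 GC boxes and no AP-1 match.

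TMPRSS3, a membrane serine protease, read 6.01, 6.12 and 6.05 log2 with vehicle and 6.62, 6.63 and 6.61 with estradiol after non-targeting siRNA, and 5.82, 5.97 and 5.67 and then 6.99, 6.73 and 6.94 after SRC-1 siRNA. Its vehicle arrays were lower and its estradiol arrays higher with SRC-1 siRNA, without overlap, though limma called neither gap. CA12, a carbonic anhydrase and a classic estrogen target, went from 8.81 to 8.95 up to 10.17 to 10.30 with non-targeting siRNA and from 8.70 to 8.81 up to 10.28 to 10.43 with SRC-1 siRNA, a difference of 0.27 (0.09 to 0.45). So of 2 well-known estrogen targets, the response of KRT19 was smaller and that of CA12 larger. PLEKHH1 differed by 0.29 (0.14 to 0.43), with higher estradiol arrays after SRC-1 siRNA (0.34 log2, limma adjusted p = 0.00369).

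Several larger inductions came from a lower vehicle level. SIRPA (probe set 8060418), the receptor for the don't-eat-me signal CD47, read 9.25, 9.29 and 9.29 log2 with vehicle and 9.36, 9.33 and 9.25 with estradiol after non-targeting siRNA, and 9.04, 8.99 and 9.04 and then 9.28, 9.33 and 9.30 after SRC-1 siRNA. The vehicle arrays with SRC-1 siRNA stood below all the other 9, and estradiol brought them back into the range of the controls. The siRNA effect in vehicle was -0.26 (limma adjusted p = 0.0126) and the difference 0.25 (0.12 to 0.38). RALGAPA1, a GTPase-activating protein for Ral, did likewise: 8.23 to 8.41 and 8.33 to 8.38 with non-targeting siRNA, against 7.79 to 8.04 and 8.33 to 8.40 with SRC-1 siRNA (vehicle effect -0.39, limma adjusted p = 0.0127). CCN1, a matricellular immediate-early protein, also started lower with SRC-1 siRNA (-0.34, 0.0115), at 10.95 to 11.03 against 11.30 to 11.37, and its difference was 0.27 (0.10 to 0.44). NCOA1 itself is in this class, with a difference of 0.71 (0.36 to 1.06, limma adjusted p = 0.442). It is the siRNA's own target, and the difference was 0.47 with the control probe mean as a covariate.

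Of the 68 larger repressions, limma called 4 with non-targeting siRNA, a low count that the rule for this class favours. MMP1 (probe set 7951271), the interstitial collagenase, read 9.35, 9.28 and 9.28 log2 with vehicle and 9.30, 9.10 and 9.67 with estradiol after non-targeting siRNA, and 8.97, 9.08 and 9.16 and then 8.21, 8.14 and 8.25 after SRC-1 siRNA. The 3 arrays with both SRC-1 siRNA and estradiol stood below all others. The vehicle arrays with SRC-1 siRNA lay below those with non-targeting siRNA too, but that gap was not called (-0.23, limma adjusted p = 0.431), while with estradiol SRC-1 siRNA lowered MMP1 by 1.16 log2 (limma adjusted p = 0.000513). ESM1 (probe set 8112045), an endothelial-type proteoglycan, read 8.23, 8.37 and 8.42 with vehicle and 8.24, 8.25 and 8.69 with estradiol after non-targeting siRNA, and 8.60, 8.76 and 8.85 and then 7.98, 8.07 and 8.04 after SRC-1 siRNA. With SRC-1 siRNA its vehicle arrays lay above and its estradiol arrays below those with non-targeting siRNA and the same treatment, and limma called neither gap. For both genes, estradiol replicate 3 was the highest array with non-targeting siRNA.

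TNC, WNT4, CHRNA9, TGFBR2, CCL20 and TXNIP were other lowered genes with a larger response. TNC, the matrix protein tenascin C, lay between 10.98 and 11.16 log2 in 9 arrays and at 10.80, 10.87 and 10.80 with SRC-1 siRNA and estradiol, a difference of -0.30 (-0.46 to -0.14). The ligand gene WNT4 read 6.79 to 6.90 in all 6 arrays with non-targeting siRNA, and 6.96 to 7.02 with vehicle and 6.64 to 6.71 with estradiol after SRC-1 siRNA, a difference of -0.33 (-0.47 to -0.19). CHRNA9, a nicotinic receptor subunit, was lower with SRC-1 siRNA under both treatments (-0.38 and -0.76, limma adjusted p = 0.00581 and 5.48e-05). TGFBR2, the type II TGF-β receptor, and CCL20, a chemokine, shared this form, with siRNA effects of -0.36 and -0.63 and of -0.91 and -1.22, all called. TXNIP, a thioredoxin inhibitor, was called lowered by estradiol with SRC-1 siRNA (-0.49, limma adjusted p = 0.000585) and not with non-targeting siRNA (-0.25, 0.0526), with an interval of the difference of -0.42 to -0.05.

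The strongest inductions were mostly held, by a bound that widens with the effect. HOXD10 (probe set 8046536), a homeobox gene of posterior limb patterning, read 5.69, 5.93 and 5.87 log2 with vehicle and 8.44, 8.11 and 8.44 with estradiol after non-targeting siRNA, and 5.87, 6.18 and 5.53 and then 8.41, 8.49 and 8.34 after SRC-1 siRNA. The siRNAs overlapped under both treatments, and the difference was 0.05 (-0.40 to 0.49) beside effects of 2.51 and 2.55. Its neighbour HOXD11 was held too (-0.06, -0.39 to 0.28). ADAMTSL5 (probe set 8032249), a secreted matrix protein, read 8.22, 8.14 and 8.27 with vehicle and 10.00, 10.14 and 10.05 with estradiol after non-targeting siRNA, and 8.18, 7.91 and 8.10 and then 10.11, 10.00 and 9.94 after SRC-1 siRNA. These also overlapped under both treatments, with a difference of 0.10 (-0.13 to 0.33), and the interval bounds any reduction of this response at 0.13 log2. The promoters of both held genes are given for comparison: chr2:176116528-176116777 on the plus strand for HOXD10 and chr19:1513020-1513269 on the minus strand for ADAMTSL5 (RefSeq, GRCh38.p14, capitals as above).
HOXD10: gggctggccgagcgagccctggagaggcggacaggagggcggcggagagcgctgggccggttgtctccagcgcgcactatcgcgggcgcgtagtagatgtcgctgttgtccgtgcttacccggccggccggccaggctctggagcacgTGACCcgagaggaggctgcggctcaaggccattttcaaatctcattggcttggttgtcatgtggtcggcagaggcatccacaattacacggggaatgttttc
ADAMTSL5: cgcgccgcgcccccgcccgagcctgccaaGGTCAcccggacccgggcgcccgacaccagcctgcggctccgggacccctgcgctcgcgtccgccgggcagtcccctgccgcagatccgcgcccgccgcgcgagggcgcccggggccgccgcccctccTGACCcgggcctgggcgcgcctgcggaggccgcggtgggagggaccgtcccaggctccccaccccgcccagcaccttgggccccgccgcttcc
HOXD10 held TGACC once, at -102, and 1 GC box. ADAMTSL5 held TGACC at 2 places, -221 and -93, and 3 GC boxes.

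C3 (probe set 8033257), the central complement component, was held only just. It read 6.34, 6.62 and 6.59 log2 with vehicle and 9.41, 9.67 and 9.58 with estradiol after non-targeting siRNA, and 6.46, 6.49 and 6.14 and then 9.13, 9.04 and 9.11 after SRC-1 siRNA. Its estradiol arrays were lower with SRC-1 siRNA without overlap (-0.46, limma adjusted p = 0.0504, not called), and the interval of the difference was -0.63 to 0.01. LOXL4, a lysyl oxidase relative, was held with a wide interval (0.27, -0.20 to 0.74), in contrast to the smaller response of LOX. The natural killer receptor genes KLRC4-KLRK1, KLRC3 and KLRC2 were held at -0.18, -0.04 and 0.07, but their vehicle levels lay under the lower quartile. The sequences of KLRC3 and KLRC2 are also closely alike. SYTL5 (-0.27, -0.70 to 0.17) had low vehicle levels as well.

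**Figure D4:**
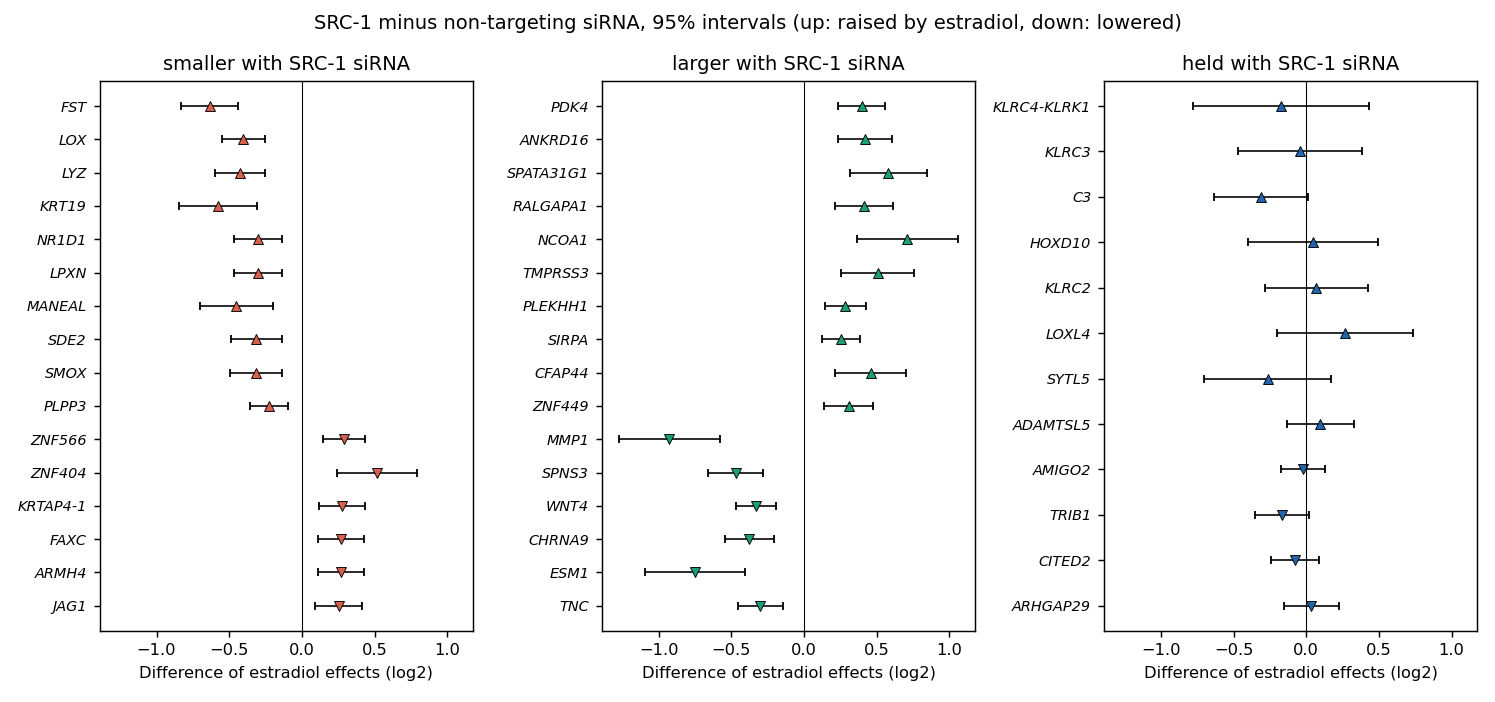
Difference of estradiol effects (log2, SRC-1 minus non-targeting siRNA) with 95% intervals for the named genes of each class, pointing up where estradiol raised and down where it lowered the gene. Intervals of the smaller and larger classes exclude 0 by their definition; in the held class that of AMIGO2 is narrow, from -0.17 to 0.13, and that of KLRC4-KLRK1 wide, from -0.78 to 0.43.

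Held repressions were few and some ran at a shifted level. AMIGO2 (probe set 7962579), a neuronal-type adhesion molecule, read 10.47, 10.53 and 10.52 log2 with vehicle and 9.78, 9.69 and 9.70 with estradiol after non-targeting siRNA, and 10.59, 10.52 and 10.51 and then 9.66, 9.73 and 9.80 after SRC-1 siRNA. The siRNAs overlapped under both treatments. ARHGAP29 (probe set 7917850) read 9.93, 9.83 and 9.81 with vehicle and 9.33, 9.20 and 9.28 with estradiol after non-targeting siRNA, and 10.37, 10.17 and 10.20 and then 9.65, 9.70 and 9.74 after SRC-1 siRNA. It was higher with SRC-1 siRNA in every array, by 0.39 and 0.43 (limma adjusted p = 0.00999 and 0.00566), while the response differed by 0.04 (-0.15 to 0.23). In all, 12 of the 132 held responses had a called siRNA effect under at least 1 treatment, 7 of them under both, beside 1.21% of all probe sets with vehicle and 1.80% with estradiol. NLRP3, the inflammasome sensor, was lower by 0.64 and 0.72 log2 (0.00101 and 0.000358, limma adjusted p) yet was raised by 1.53 and 1.46. LIF, a cytokine of the IL-6 family, was lower by 0.47 and 0.44 and raised by 1.11 and 1.14, and SLCO2A1, a prostaglandin transporter, was lower by 0.48 and 0.36 and raised by 0.89 and 1.01. CITED2, which binds p300 and CBP, was higher with vehicle (0.29, limma adjusted p = 0.0233) and was lowered by 0.67 and 0.74.

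Gene lists described by class gave 0 genes called for the difference in any list. Their counts of responsive genes stand beside the 9.96% of all probe sets that were called for the averaged effect. Of 33 measured estrogen-induced genes of breast cancer cells, 12 were raised and 0 lowered, beside 9.96% of all probe sets. KRT19 was smaller, CA12, MYBL1 and SLC22A5 were larger, ABCA3 and HSPB8 were held, and 6 were undetermined. SLC22A5, a carnitine transporter, went from 8.08 to 8.14 up to 8.38 to 8.56 log2 with non-targeting siRNA and from 8.07 to 8.12 up to 8.61 to 8.69 with SRC-1 siRNA, so only its estradiol arrays were apart. The list's median difference of 0.0115, beside -0.00244 over all probe sets, changed sign under the renewed quantile normalization (-0.00818). Of 14 genes that estrogen represses there, 2 were raised and 5 lowered here. The responses of BCL6, which estradiol raised here, and of TXNIP, which it lowered, were larger, and those of MUC1 and ZFP36L1 were held.

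In the activin, TGF-β and BMP pathway, 18 of 38 genes responded, 7 raised and 11 lowered, beside 9.96% of all probe sets. The interval excluded 0 for 8 of the 38 (21.1%, beside 7.22% of all probe sets). Among ligands, TGFB2 was smaller, and BMP2 and INHBA, the activin A subunit, were larger. The receptor TGFBR2 was larger, the activin inhibitor FST and the target gene ID1 were smaller, and 0 were held. These members thus went to both sides, and the median difference was 0.0126, or -0.00829 under the renewed quantile normalization.

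Growth factor signalling genes were next. Of 24 MAP kinase feedback inhibitors, 3 were raised and 10 lowered, beside 9.96% of all probe sets. DUSP1, DUSP10 and ERRFI1, an inhibitor of the EGF receptor, were smaller, TRIB1 was held and 0 were larger. ERRFI1 is raised by estradiol, at 11.18 to 11.22 and 11.51 to 11.68 log2 with non-targeting siRNA against 11.21 to 11.34 and 11.48 to 11.55 with SRC-1 siRNA. The median difference of the list was -0.099, with 18 of 24 below 0 (17 and 19 under the other scalings). Its median averaged effect was -0.181 log2. For a lowered gene a difference below 0 is a stronger response, and the smaller responses of the lowered DUSP1 and DUSP10 have differences above 0. The sign of the list median therefore does not show smaller responses. Of 32 immediate-early genes, 7 were raised and 11 lowered. CCN1 and SGK1 were larger, and FOSL2, an AP-1 subunit, IER3, ZFP36 and ZFP36L1 were held.

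Among 35 cytokines and inflammatory mediators, 7 were raised and 4 lowered. IL6 was smaller, CCL20 larger, and C3, CSF1 and LIF held, and 9 of the 35 were called lower with SRC-1 siRNA in vehicle cells, where 1.21% of all probe sets were called in either direction. Of 37 matrix genes, 6 were raised and 5 lowered. LOX was smaller, MMP1 and TNC were larger, and ADAMTSL5, LOXL4, THBS1 and the metalloproteinase inhibitor TIMP3 were held. Of 20 endothelial-type genes, 2 were raised and 5 lowered. ESM1, MYCT1 and the lymphatic growth factor VEGFC were larger and the transcription factor ERG was held. MYCT1 was lower with SRC-1 siRNA under both treatments (-0.59 and -0.92, limma adjusted p = 0.00241 and 0.000112).

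In the remaining lists few genes responded. Of 17 cholesterol synthesis and SREBP target genes, 1 was raised and 3 lowered. INSIG1, which holds back SREBP processing, was smaller (0.26, 0.06 to 0.46) and LSS, lanosterol synthase, larger (0.21, 0.04 to 0.38), and 1 of 17 differences was below 0 (1 and 2 under the other scalings), with a median of 0.0779 (0.0937 and 0.0663). The 9 responsive G1/S genes and the 2 responsive G2/M genes were all undetermined, with intervals such as -0.17 to 0.08 for CCND1 and -0.28 to 0.09 for CDKN1A. Of 23 coactivators and partners, 2 were raised and 1 lowered: NCOA1 larger, CITED2 held, and NRIP1, a corepressor that estrogen induces, undetermined at -0.02 (-0.21 to 0.18). ISG20 was smaller and IFI44L larger of 26 interferon-stimulated genes. Of 13 keratins and epithelial structure genes, 4 responded, with KRT19 smaller and KRT15 held. CEBPB was held of 24 ATF4 and amino-acid response genes. BMP2 was larger of 16 osteoblast genes, where TNFRSF11B, the decoy receptor osteoprotegerin, was undetermined (0.07, -0.10 to 0.24).

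**Figure D5:**
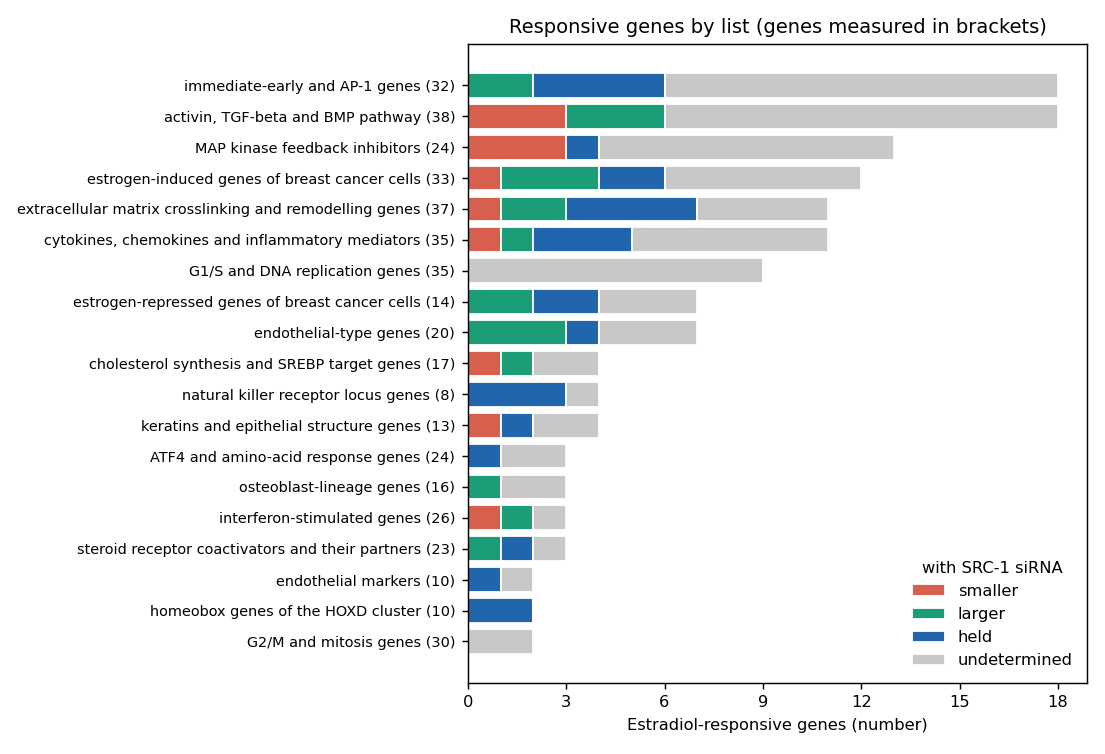
Number of estradiol-responsive genes of each list (x axis, stacked by class; genes measured in brackets), for the 19 lists with any. The activin, TGF-β and BMP list has 18 responsive genes, 3 smaller, 3 larger and 0 held, the MAP kinase feedback list 3 smaller and 0 larger, and the G1/S list 9 that are all undetermined.

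Promoter letters were counted over each class in the 250 bases before the most upstream start that RefSeq lists (GRCh38.p14), on both strands. The motifs were the full palindromic estrogen response element, its single arm TGACC, which lies within it, the AP-1 site TGANTCA, the GC box GGGCGG and the NF-kB site. Of all 27305 promoters, 12 held the full element, 33.1% the single arm, 6.57% an AP-1 site, 42.2% a GC box and 22.0% an NF-kB site, and of the 14239 of tested genes 31.0% held the arm, 4.87% an AP-1 site and 57.3% a GC box. The full element was in 0 promoters of the smaller, larger and held classes. The single arm was in 12 of 26 promoters of smaller raised genes (46.2%), 5 of 32 of smaller lowered genes (15.6%), 30 of 91 of larger raised genes (33.0%), 3 of 47 of larger lowered genes (6.38%) and 18 of 80 of held raised genes (22.5%). The AP-1 site was in 3 of 26, 1 of 32, 3 of 91, 2 of 47 and 3 of 80 of these. The GC box was in 61 of the 80 held raised promoters (76.2%) and in 15 of the 26 smaller raised ones (57.7%). These shares describe letters in 1 window per gene and were not tested.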

How the data were processed

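RNA of the 12 samples was hybridized to Affymetrix Human Gene 1.0 ST arrays. Each probe set has a deposited log2 value per array, which the authors made with the affy package and tested with limma, per the labels. Versions, background correction and normalization are not given in the sources used here, and no value was rescaled. Control probe sets (4203 of 33297) were left out; they were recognised only by identifiers lower than 7896740, where gene annotation starts. The 29094 others were tested, 19460 with 1 gene symbol.

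limma 3.58.1 (R 4.3.3) fitted 4 group means to the 12 arrays together, with moderated variances (8 residual degrees of freedom and 3.15 from the prior) and two-sided tests. The call threshold, an unadjusted p below 0.01 with an adjusted p below 0.05 over all tested probe sets (Benjamini-Hochberg), is the one the authors state, per the labels' design text. Classes are defined in the results; lists use 1 probe set per gene, that with the highest mean. No depth applies to arrays. Replicate numbers come from the titles. Deviations of same-numbered arrays correlated at -0.0349 to 0.209, 6 of 18 over 0.1. Those of arrays with different numbers correlated at -0.264 to 0.115, 2 of 36 over 0.1. The titles give a number and do not state pairs, so the main fit left the arrays unpaired. Whether numbers mark shared batches was not tested beyond the fit with a replicate block.

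Genes named are NCOA1, ESR1, FST and LOX, and those with the smallest unadjusted p of the difference in the smaller and larger classes (up to 10 raised and 6 lowered), the largest effects among the held (8 and 4), up to 6 outside the responsive set and up to 3 per list. Beyond that rule, the held genes with a called siRNA effect (NLRP3, LIF, SLCO2A1) were chosen after their values were seen, and members of a list that fall in a class are named with it. The members, lists and tests were chosen with earlier results of these data known. Alternatives were other scalings, filters, variances, array weights, a covariate, a replicate block and each array left out. The fit was tested on simulated data. Promoters of 72 of 96 named genes were found in RefSeq's table (GRCh38.p14). A GSK3 siRNA pool named in the design text is not analysed here.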

Additional observations from a re-analysis of the deposited data

Results flagged for a closer look

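The probe sets taken as controls, which the comparisons of the report leave out, differed between the groups. Their mean deviation was 0.135 log2 in the arrays with SRC-1 siRNA and estradiol (0.133, 0.0941 and 0.178 on the single arrays), above the arrays with SRC-1 siRNA and vehicle (-0.0242, -0.159 and -0.0899) without overlap. With non-targeting siRNA the estradiol arrays were at -0.00322, 0.0323 and 0.0679 and the vehicle arrays at -0.0391, -0.123 and -0.067, also apart. The median difference of estradiol effects over control probe sets was 0.165 log2 for those with a mean under 6 and 0.0153 for those at 10 and over, while tested probe sets had -0.00836 and 0.00114 at these levels. The part of this shift in the larger responses was not tested beyond the fit with it as a covariate.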

How the results depend on the processing

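The count of 0 probe sets called for the difference became 2 with a trended and robust variance, 494 at an unadjusted p under 0.01 alone and 2102 at one under 0.05 alone, and it was 0 in each of the 12 fits without 1 array. With the control probe mean as a covariate the responsive count went from 2898 to 212, the smaller responses to 11 and the larger ones to 32. Among averaged effects of at least 1.5-fold, 17 were smaller and 12 larger. A fixed bound of 0.4 log2 gave 1539 held responses in place of 132. Without 1 array the larger count ranged from 110 to 529, the smaller from 50 to 71 and the responsive from 2076 to 3725; 110 and 529 came without the second and the first SRC-1 siRNA vehicle array. The cause was not tested. With the replicate block, 0 differences were called, and the smallest limma adjusted p of the difference was 0.0911, beside 0.392 without it. In that fit 3290 probe sets were responsive, 90 responses were smaller, 287 larger and 131 held. Of the 12 arrays, 10 correlated best with an array of their own number, a hint from the data and not the design. The SRC-1 siRNA effect was called in 728 probe sets with vehicle and 1117 with estradiol without the lowest 40% of probe sets, and in 857 and 1246 with a trended and robust variance. The covariate gave 366 and 106 calls for estradiol with non-targeting and SRC-1 siRNA, and 121 for SRC-1 siRNA with estradiol. Of 97 differences of named genes over 1925 settings, 2 became called, FST and LOX. The sign changed in 40 settings over 12 genes, whose 95% intervals with the values as deposited all cover 0, with values from -0.119 to 0.135: ADAMTSL5, AMIGO2, ARHGAP29, HOXD10, HOXD11, IFIH1, KLRC2, KLRC3, KRT8, NRIP1, PHEX and ROBO4. With 3 arrays a group, an unadjusted 95% interval of the difference reached a median of 0.221 log2 to either side. The call rule is stricter, and even the difference of MMP1 (-0.93) was not called with the values as deposited. Signal over background was not measured.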

Other observations

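Among genes outside the responsive set, 6 were singled out by the smallest unadjusted p of the difference. Their estimated estradiol effects had opposite signs with the 2 siRNAs, and for none were both effects called. A large difference without a called averaged effect favours opposite signs, so this pattern follows from the choice. PTPN22, a tyrosine phosphatase known from lymphocytes, read 7.09, 7.33 and 7.23 log2 with vehicle and 7.42, 7.22 and 7.68 with estradiol after non-targeting siRNA, and 7.93, 7.91 and 7.89 and then 7.51, 7.48 and 7.40 after SRC-1 siRNA. Its vehicle arrays with SRC-1 siRNA stood above all others (0.69 log2 over non-targeting vehicle, limma adjusted p = 0.00567), and the difference was -0.67 (95% interval -0.97 to -0.36, adjusted p = 0.392). PRRX1, a mesenchymal homeobox gene, lay at 7.19 to 7.42 and 7.41 to 7.44 with non-targeting siRNA and at 7.44 to 7.50 and 7.13 to 7.28 with SRC-1 siRNA, a difference of -0.41 (-0.59 to -0.22). DCLK1, a doublecortin-like kinase, lay at 9.75 to 9.89 in all 6 arrays with non-targeting siRNA and at 9.72 to 9.80 with vehicle after SRC-1 siRNA, and estradiol then lowered it to 9.45 to 9.58 (-0.24, limma adjusted p = 0.00972). CYP27A1, a sterol hydroxylase, was also called lowered with SRC-1 siRNA (-0.24, limma adjusted p = 0.0164) and had an effect of 0.12 with non-targeting siRNA (0.314), with a difference of -0.36 (-0.52 to -0.20).

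The uncharacterized LOC643406 was raised by 0.42 log2 with non-targeting siRNA (limma adjusted p = 0.0292), and its effect with SRC-1 siRNA was -0.28 (0.0856), a difference of -0.70 (-0.98 to -0.42). The olfactory receptor gene OR7C2 had values of -0.25 and 0.17, neither called by limma (adjusted p = 0.062 and 0.137). None of these 6 differences was called.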
